A study of Homo sapiens with 12 samples.

Results

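The genes described here encode the machinery that writes and erases N6-methyladenosine (m6A), the most common internal modification of messenger RNA. The members were chosen by symbol: METTL3, METTL14, WTAP, RBM15, RBM15B, ZC3H13, CBLL1 and METTL16 as writers and their subunits, and FTO and ALKBH5 as erasers. All 10 symbols were found among the 24641 gene symbols of the deposited count table. RNA sequencing was done on MDA-MB-231, an established line of human breast cancer cells that lack hormone receptors. The cells carried either a short hairpin RNA against RIPOR3 (shRIPOR3) or a control hairpin (shControl, labelled wild type), so cells of every group carried a hairpin. They were kept in a hypoxic work station with 1% O2 for 24 hours or in normoxia, which gave 4 groups of 3 libraries: hypoxia shRIPOR3, hypoxia shControl, normoxia shRIPOR3 and normoxia shControl. The study's title ties METTL3 and m6A to the stability of RIPOR3 mRNA in hypoxia, and the comparisons here ask how the mRNAs of the writers and erasers themselves stood in the same cells.

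METTL3 and METTL14 form the core of the nuclear writer complex. METTL3 transfers the methyl group, and METTL14 holds the RNA. WTAP anchors this pair, RBM15 and RBM15B bring the complex to its RNA targets, and ZC3H13 and CBLL1 (also called HAKAI) are further subunits. METTL16 is a separate methyltransferase that acts on U6 small nuclear RNA and on the mRNA of MAT2A, the enzyme that makes the methyl donor. FTO and ALKBH5 remove the methyl group, and both belong to the dioxygenases that use iron, 2-oxoglutarate and molecular oxygen.

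Levels are given as CPM, the counts of a gene relative to the total of its library after scaling by TMM factors. The libraries held 31781324 to 52526813 counts in hypoxia and 14750734 to 30032858 in normoxia, so depth differed with oxygen. Every member had between 207 and 13283 counts in every library, and all 10 passed the filter on low counts. RIPOR3, the target of the hairpin, had 9, 3 and 11 counts in hypoxia shRIPOR3 against 33, 18 and 30 in hypoxia shControl, and 0, 0 and 1 in normoxia shRIPOR3 against 7, 3 and 7 in normoxia shControl. It was scarce in every group, with means of 0.150 CPM in hypoxia shRIPOR3, 0.728 in hypoxia shControl, 0.0117 in normoxia shRIPOR3 and 0.246 in normoxia shControl. NDRG1 and CA9, both known to be induced by hypoxia, averaged 483 and 1.49 CPM in hypoxia shRIPOR3 against 1972 and 15.6 CPM in hypoxia shControl. They averaged 71.6 and 0.0373 CPM in normoxia shRIPOR3 and 167 and 0.136 CPM in normoxia shControl. VIM and CD44, which are high in this line, reached at least 401 CPM in every library, ANXA1 at least 511 and AXL at least 359 CPM. S100A4, also chosen as a high marker, had only 5.11 to 21.0 CPM. Of the luminal genes chosen as low markers, ESR1 and PGR reached at most 0.683 CPM, FOXA1 1.11 and GATA3 3.09 CPM. ERBB2, chosen as low too, had 30.3 to 44.3 CPM. The epithelial markers EPCAM and CDH1, also chosen as low, had 4.22 to 8.02 and 0.770 to 1.65 CPM. The blood markers PTPRC, CD3E and LYZ reached at most 0.585 CPM. The 2 endothelial and 2 fibroblast markers had 1.10 to 8.60 CPM and differed between groups. CDH5 averaged 2.41 CPM in hypoxia shRIPOR3, 8.29 in hypoxia shControl, 1.32 in normoxia shRIPOR3 and 2.19 in normoxia shControl. PECAM1 averaged 1.31, 4.84, 1.23 and 5.36 CPM, COL1A1 3.61, 4.08, 2.51 and 3.29 CPM, and PDGFRB 3.31, 7.07, 2.03 and 3.48 CPM in the same order of groups. The part of these differences in the members' values was not tested. The labels do not say whether the 3 libraries of a group were grown as separate cultures. The p-values therefore rest on the spread between libraries, which may be technical. In bulk RNA a lower level in each cell and fewer cells with the transcript cannot be told apart.

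A gene was called when edgeR's quasi-likelihood test gave an adjusted p under 0.05 over all 15648 genes tested. A log2 fold change is followed by its standard error. Since genes differ in length, levels are compared between genes only per kilobase of merged exons. Averaged over the 4 groups, ZC3H13 had the highest level with 25.8 CPM per kb, followed by ALKBH5 with 19.6, WTAP with 14.3, RBM15B with 14.2, METTL3 with 10.8, METTL14 with 9.46 and CBLL1 with 9.44. RBM15 (4.31 CPM per kb), METTL16 (2.72) and FTO (1.69) were the scarcest. This order depends on the length used. Per kb of the longest transcript, METTL3 stood at 25.3 and METTL14 at 9.73 CPM per kb, and FTO remained the lowest at 3.08.

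**Figure D1:**
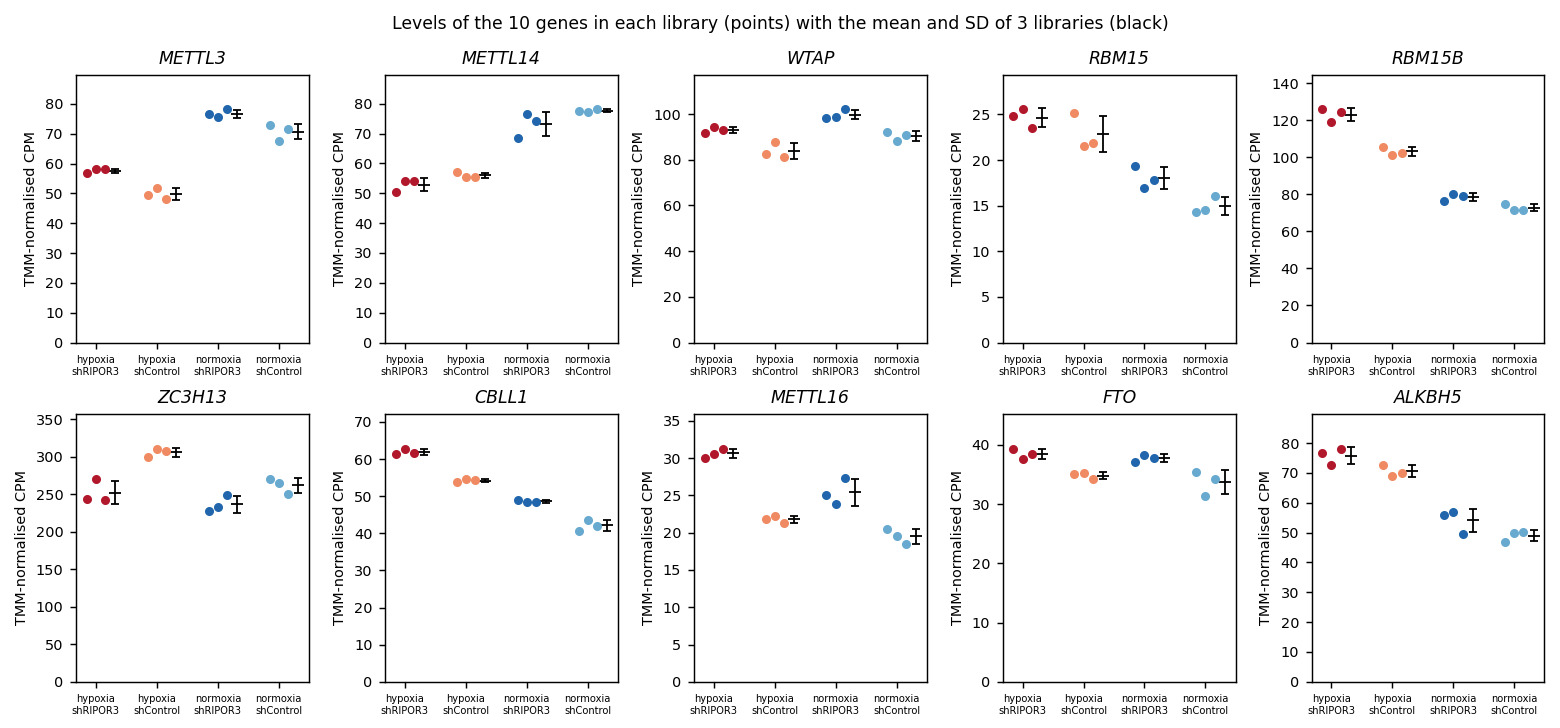
TMM-normalised CPM of each of the 10 genes in the 12 libraries, with 1 point per library, 1 colour per group and the mean with SD of 3 libraries in black. METTL3 and METTL14 sit lower in hypoxia, RBM15, RBM15B, CBLL1 and ALKBH5 sit higher, and FTO moves little with oxygen.

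The promoters of 3 members are shown because they hold ACGTG, the form searched here of the core of the hypoxia response element. The part of these letters in the members' values was not tested. The search covered the 250 bases before the RefSeq start site on both strands (GRCh38.p14), and all 10 members were matched. The windows run 5′ to 3′ on the gene's strand, with the matching letters in capitals. They lie at chr14:21511398-21511427 (minus strand) for METTL3, at chr1:110339184-110339213 (plus strand) for RBM15 and at chr3:51391193-51391222 (plus strand) for RBM15B.
METTL3: ctgccaacacctaACGTGgctctttatagc
RBM15: aacactttgggtCACGTGaccgcagagtgc
RBM15B: ccgccgcagagtCACGTGgcaggacggcgc
In RBM15 and RBM15B the match is the palindrome CACGTG, which is read as ACGTG on both strands and overlaps itself. Of 35116 promoters of this length 18.5% held ACGTG and 6.34% held CACGTG. The window of METTL3 starts 87 bases, that of RBM15 193 bases and that of RBM15B 92 bases before the start site. The window of RBM15 lies inside the longer gene annotated by GENCODE 29. No match was found in the windows of the other 7 members, which says only that these letters are not in those windows. Other forms of the core were not searched.

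In shControl cells the core pair of the writer was lower in hypoxia, and several of its partners and the eraser ALKBH5 were higher. Of the 10 members 6 rose, 3 fell and FTO did not pass the test. Across all genes tested 32.4% rose and 32.4% fell, 64.8% in all, so a count of 9 calls in 10 is to be read against a response that touched most genes. The members' median log2 fold change was 0.19 and that of all genes 0.02, and the medians of the absolute values were 0.42 and 0.36.

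METTL3, the catalytic subunit, lies on chromosome 14 from 21498133 to 21511375 (GRCh38, GENCODE 29). It had 49.5, 51.8 and 48.1 CPM in hypoxia shControl against 72.8, 67.7 and 71.8 CPM in normoxia shControl. The groups lay well apart, with a log2 fold change of -0.51 ± 0.041 (adjusted p = 7.3e-11). METTL14, on chromosome 4 from 118685368 to 118715433, had 57.0, 55.4 and 55.6 CPM in hypoxia shControl against 77.6, 77.1 and 78.0 CPM in normoxia shControl. Its log2 fold change was -0.47 ± 0.043 (adjusted p = 8.04e-10), close to that of its partner. WTAP, the anchor, fell by much less, with a log2 fold change of -0.11 ± 0.039 (adjusted p = 0.0146), and averaged 83.9 ± 3.38 CPM in hypoxia shControl and 90.4 ± 2.13 CPM in normoxia shControl (SD, n = 3 each).

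The RNA-binding subunits went the other way. RBM15, on chromosome 1 from 110338506 to 110346681, had 25.1, 21.5 and 21.9 CPM in hypoxia shControl against 14.3, 14.5 and 16.03 CPM in normoxia shControl, and its log2 fold change of 0.61 ± 0.07 was the highest of the 10 members. Its relative RBM15B, on chromosome 3 from 51391268 to 51397908, had 106, 101 and 102 CPM in hypoxia shControl against 75.0, 71.8 and 71.4 CPM in normoxia shControl (log2 0.51 ± 0.039). Groups did not overlap for either gene. CBLL1, a ubiquitin ligase of the complex, rose by 0.37 ± 0.039 and ZC3H13, which helps to keep the complex in the nucleus, by 0.23 ± 0.045. METTL16, the separate methyltransferase, rose by 0.16 ± 0.058 (adjusted p = 0.0192), with 21.8 ± 0.458 CPM in hypoxia shControl and 19.5 ± 0.994 CPM in normoxia shControl (SD, n = 3 each).

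The erasers parted. ALKBH5, on chromosome 17 from 18183078 to 18209954, had 72.8, 69.0 and 70.1 CPM in hypoxia shControl against 46.9, 49.97 and 50.1 CPM in normoxia shControl, a log2 fold change of 0.53 ± 0.049 (adjusted p = 1.03e-09). FTO, on chromosome 16 from 53701692 to 54158512, had 35.1, 35.2 and 34.2 CPM in hypoxia shControl against 35.4, 31.4 and 34.3 CPM in normoxia shControl. These values overlapped, and the 95% interval of its log2 fold change ran from -0.06 to 0.13.

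When libraries were scaled by their totals alone, the all-gene median moved up by 0.11 on the log2 scale, and 61.6% of the called genes were higher, against 50.03% with TMM factors. On that scale WTAP had a log2 fold change of -0.0002 (adjusted p = 0.996) and FTO rose (0.15, adjusted p = 0.00856), while the other 8 members kept their direction and their call. WTAP lost its call in 7 of the 21 alternatives, among them without replicate 1 of normoxia shControl (-0.10, adjusted p = 0.0536), without replicate 1 of hypoxia shControl (-0.10, adjusted p = 0.0519) and without replicate 3 of hypoxia shControl (-0.09, adjusted p = 0.067). METTL16 lost its call without replicate 3 of normoxia shControl (0.11, adjusted p = 0.158), in DESeq2 (adjusted p = 0.0852) and when counts were thinned to the smallest library (adjusted p = 0.0561).

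**Figure D2:**
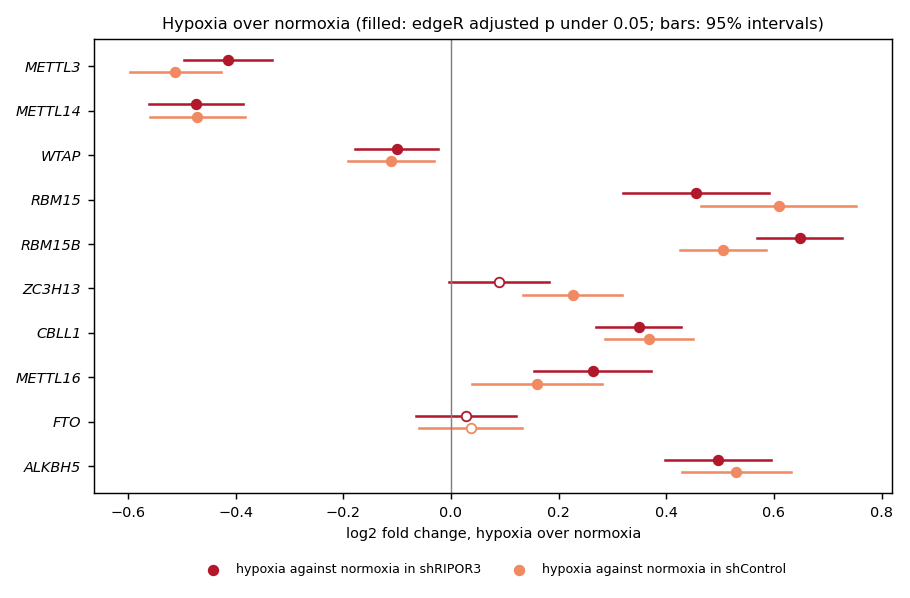
Log2 fold change of hypoxia over normoxia for the 10 genes in shRIPOR3 (dark) and shControl (light), with 95% intervals; filled points were called by edgeR. METTL3 and METTL14 lie left of 0 with either hairpin, RBM15, RBM15B, CBLL1 and ALKBH5 lie right of it, and the intervals of FTO span 0.

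With the RIPOR3 hairpin, METTL3, METTL14 and WTAP again fell in hypoxia, and RBM15, RBM15B, CBLL1, METTL16 and ALKBH5 again rose. Of the 10 members 5 rose, 3 fell and 2 did not pass the test, beside 25.2% of all genes that rose and 30.4% that fell, 55.6% in all. The members' median was 0.18 and that of all genes -0.01. This comparison shares no library with the one in shControl, but all 12 libraries were fitted together and shared the estimate of spread.

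METTL3 had 56.8, 58.1 and 58.0 CPM in hypoxia shRIPOR3 against 76.6, 75.5 and 78.1 CPM in normoxia shRIPOR3 (log2 -0.41 ± 0.039, adjusted p = 3.09e-09). METTL14 had 50.3, 54.2 and 54.1 CPM in hypoxia shRIPOR3 against 68.6, 76.5 and 74.3 CPM in normoxia shRIPOR3 (log2 -0.47 ± 0.042). For both genes every hypoxic library lay below every normoxic one. WTAP had a log2 fold change of -0.10 ± 0.038 (adjusted p = 0.0256).

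RBM15B rose most here, with 126, 119 and 124 CPM in hypoxia shRIPOR3 against 76.3, 80.3 and 79.0 CPM in normoxia shRIPOR3 (log2 0.65 ± 0.038, adjusted p = 8.34e-13). RBM15 rose by 0.46 ± 0.066, CBLL1 by 0.35 ± 0.038 and METTL16 by 0.26 ± 0.053. ALKBH5 had 76.8, 72.6 and 78.1 CPM in hypoxia shRIPOR3 against 55.9, 56.8 and 49.6 CPM in normoxia shRIPOR3 (log2 0.50 ± 0.048). The lowest hypoxic library was again well above the highest normoxic one. FTO did not pass the test, with a 95% interval from -0.06 to 0.12, and ZC3H13 had a log2 fold change of 0.09 ± 0.045 (adjusted p = 0.094) and overlapping libraries.

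Scaling by library totals shifted the median of all genes by 0.12 (log2) here and made 63.4% of the called genes higher, against 45.3% with TMM factors. On that scale WTAP turned to 0.02 (adjusted p = 0.663), and ZC3H13 (0.21) and FTO (0.15) were called higher. The call of WTAP was lost in 10 further alternatives, among them without replicate 3 of normoxia shRIPOR3 (adjusted p = 0.114), replicate 1 (0.0882) or 3 (0.0526) of hypoxia shRIPOR3, or replicate 2 (0.156) or 3 (0.16) of hypoxia shControl. ZC3H13 gained a call in 7 of the 21 alternatives, among them upper-quartile scaling (adjusted p = 0.0261), the filter of 1 CPM in 3 libraries (0.0312) and the fit of only the 2 groups (0.0215). It also gained one without replicate 3 of normoxia shRIPOR3 (adjusted p = 0.0329) and without replicate 2 (0.0179) or 3 (0.0156) of hypoxia shControl.

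Ratios of 2 members within a library do not depend on scaling, and no test was run on them. WTAP over METTL3 was 1.61, 1.63 and 1.61 in hypoxia shRIPOR3 against 1.28, 1.31 and 1.31 in normoxia shRIPOR3, and 1.67, 1.69 and 1.69 in hypoxia shControl against 1.27, 1.30 and 1.27 in normoxia shControl. The 6 hypoxic libraries all stood above the 6 normoxic ones. FTO over ALKBH5 was 0.512, 0.518 and 0.493 in hypoxia shRIPOR3 against 0.663, 0.676 and 0.762 in normoxia shRIPOR3, and 0.483, 0.510 and 0.488 in hypoxia shControl against 0.755, 0.629 and 0.685 in normoxia shControl. Here too no hypoxic library reached a normoxic one. METTL3 over METTL14 sorted with the hairpin instead, at 1.13, 1.07 and 1.07 in hypoxia shRIPOR3 against 0.868, 0.935 and 0.865 in hypoxia shControl, and at 1.12, 0.987 and 1.05 in normoxia shRIPOR3 against 0.937, 0.878 and 0.919 in normoxia shControl. RBM15 over RBM15B lay between 0.189 and 0.253 in all libraries, and its groups overlapped.

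**Figure D3:**
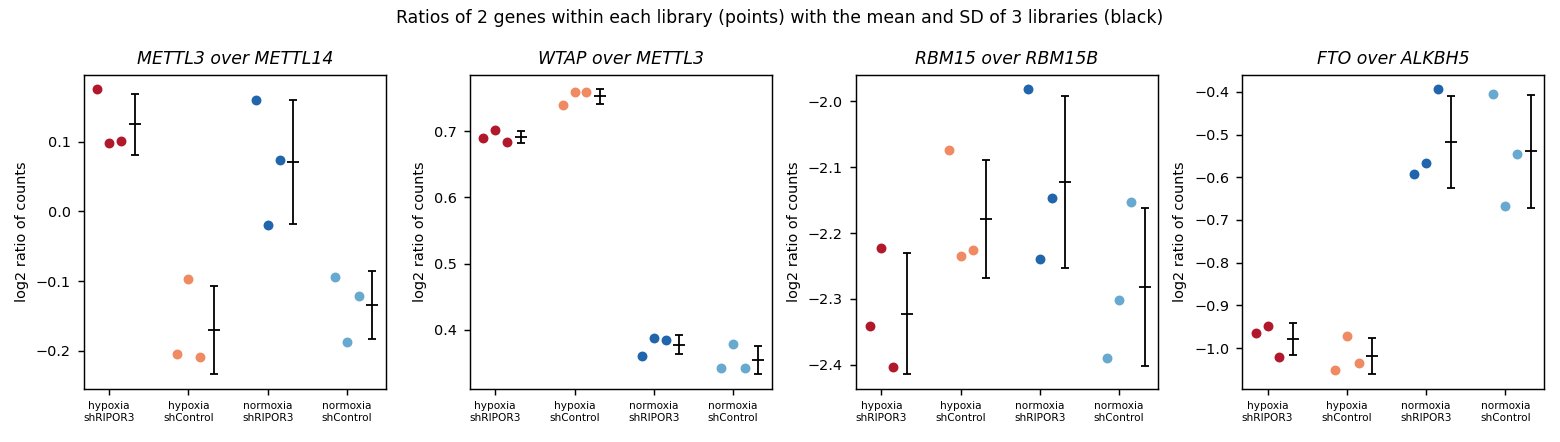
Log2 ratio of the counts of 2 genes in each library, with 1 point per library and the mean with SD of 3 libraries in black. WTAP over METTL3 and FTO over ALKBH5 separate hypoxia from normoxia, and METTL3 over METTL14 separates shRIPOR3 from shControl within each oxygen level.

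The RIPOR3 hairpin was next compared with the control hairpin within each oxygen level. The column names give the same hairpin for every shRIPOR3 library. Loss of RIPOR3 and other effects of that hairpin cannot be told apart. At either oxygen level METTL16 showed the largest difference of the 10 members, higher with the RIPOR3 hairpin, and ZC3H13 was lower. In hypoxia 7 members were higher in shRIPOR3, ZC3H13 was lower and 2 did not pass the test, beside 30.7% of all genes that were higher and 31.2% that were lower, 61.9% in all. The members' median was 0.15 and that of all genes -0.003, and the medians of the absolute values were 0.17 for the members and 0.28 for all genes.

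METTL16 differed most, with 30.1, 30.6 and 31.3 CPM in hypoxia shRIPOR3 against 21.8, 22.2 and 21.3 CPM in hypoxia shControl (log2 0.49 ± 0.05, adjusted p = 6.77e-09). RBM15B was higher by 0.25 ± 0.036, METTL3 by 0.21 ± 0.039, CBLL1 by 0.19 ± 0.035, WTAP by 0.15 ± 0.037 and FTO by 0.15 ± 0.042. Libraries of the 2 hairpins did not overlap for any of these 6 genes. ZC3H13 had 244, 270 and 243 CPM in hypoxia shRIPOR3 against 300, 311 and 309 CPM in hypoxia shControl (log2 -0.28 ± 0.044, adjusted p = 6.21e-06). METTL14 did not pass the test, at -0.08 ± 0.041 (adjusted p = 0.0809), nor did RBM15, at 0.10 ± 0.058 (adjusted p = 0.139).

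ALKBH5 was called at 0.10 ± 0.044 (adjusted p = 0.0444), but its libraries overlapped. That call was lost without replicate 2 (adjusted p = 0.0949) or 3 (0.0626) of hypoxia shControl and without replicate 1 (0.113) or 3 (0.156) of hypoxia shRIPOR3, and with counts thinned to the smallest library the value was 0.06 (adjusted p = 0.333). RBM15 gained a call without replicate 1 of hypoxia shControl (0.18, adjusted p = 0.0141).

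In normoxia 8 members were higher in shRIPOR3 than in shControl and ZC3H13 was again lower, beside 25.1% of all genes that were higher and 20.6% that were lower, 45.7% in all. The members' median was 0.14 and that of all genes 0.03, and the medians of the absolute values were 0.14 for the members and 0.23 for all genes. With the filter of 1 CPM in 3 libraries, 6974 of 13122 genes were called. The comparison of the hairpins in normoxia shares no library with the one in hypoxia, but both came from the joint fit of all 12 libraries. METTL16 again had the largest log2 fold change, with 25.1, 23.8 and 27.3 CPM in normoxia shRIPOR3 against 20.5, 19.5 and 18.5 CPM in normoxia shControl (log2 0.39 ± 0.061, adjusted p = 1.11e-05). CBLL1, with 49.1, 48.3 and 48.5 CPM in normoxia shRIPOR3 against 40.7, 43.6 and 42.1 CPM in normoxia shControl, was higher as well (log2 0.21 ± 0.042, adjusted p = 0.000204). These 2 genes and WTAP (0.14 ± 0.039, adjusted p = 0.00513) kept their call in all 21 alternatives.

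The other calls in normoxia were each lost in some of the 21 alternatives, from 1 for RBM15 to 10 for ALKBH5. RBM15 was higher by 0.25 ± 0.077, FTO by 0.15 ± 0.049, ALKBH5 by 0.14 ± 0.052, METTL3 by 0.11 ± 0.041 and RBM15B by 0.11 ± 0.041, and ZC3H13 stood at -0.14 ± 0.045, with adjusted p between 0.00879 and 0.033. METTL14 did not pass the test, at -0.08 ± 0.044 (adjusted p = 0.133). Single libraries decided several of these calls. Without replicate 1 of normoxia shControl the adjusted p was 0.0556 for RBM15, 0.0658 for ZC3H13 and 0.167 for ALKBH5. Without replicate 2 of that group it was 0.104 for METTL3, 0.0632 for RBM15B and 0.0594 for FTO, and without replicate 3 it was 0.113 for RBM15B. Leaving out replicate 1 of normoxia shRIPOR3 gave 0.0606 for ZC3H13 and 0.106 for ALKBH5, and leaving out replicate 2 gave 0.111 for RBM15B, 0.0504 for ZC3H13 and 0.194 for ALKBH5. Leaving out replicate 3 of normoxia shRIPOR3 gave 0.11 for METTL3 and 0.0794 for RBM15B. Libraries of the hypoxic groups also entered the fit. Without replicate 2 or 3 of hypoxia shControl, METTL3 (0.0777 and 0.0776), RBM15B (0.0942 and 0.0914) and ALKBH5 (0.0917 and 0.0921) lost their calls and METTL14 (0.0466 and 0.0426) gained one. DESeq2 called 6 of the 10 members here, against 9 by edgeR, beside 6341 of the 16036 genes to which it gave an adjusted p. It missed METTL3 (adjusted p = 0.0578), RBM15B (0.0505) and ALKBH5 (0.0565). The calls also depended on the fit and scaling. With only the 2 normoxic groups fitted, METTL3 (0.121), RBM15B (0.123), FTO (0.0662) and ALKBH5 (0.122) lost their calls. METTL14 (0.0361) gained one there, beside 6781 of 14172 genes called. The all-gene median was 0.001 in that fit. ALKBH5 also lost its call with upper-quartile scaling (0.0510) and library totals (0.0596).

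**Figure D4:**
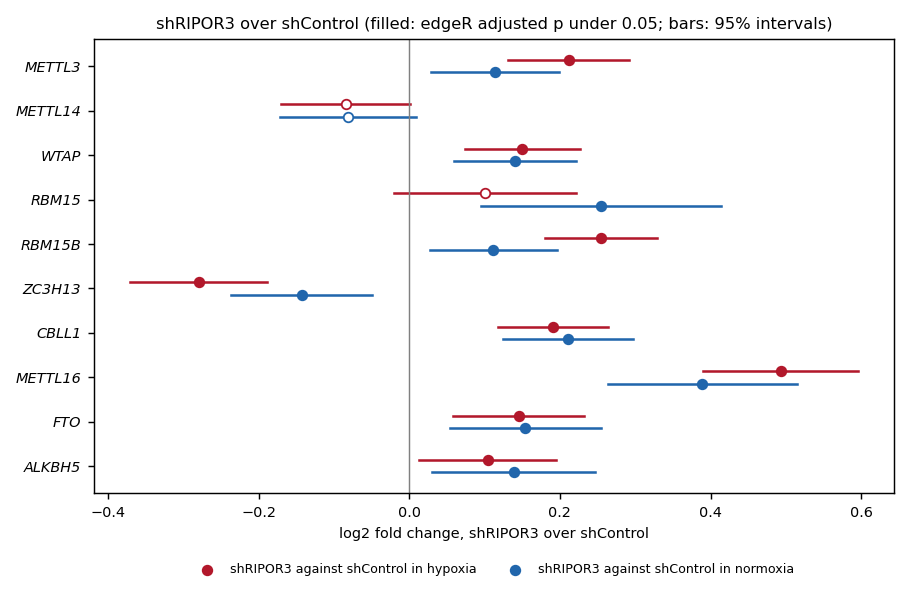
Log2 fold change of shRIPOR3 over shControl for the 10 genes in hypoxia (red) and normoxia (blue), with 95% intervals; filled points were called by edgeR. METTL16 lies farthest right, at 0.49 and 0.39, ZC3H13 lies left of 0 in both, and METTL14 was not called in either.

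Whether the response to oxygen differed between the hairpins was asked with the interaction term, in which no member was called by edgeR, beside 23.2% of all genes. At an unadjusted p under 0.05 there were 2 members, RBM15B and ZC3H13. All genes were not counted at that limit, but the 23.2% called at the stricter adjusted limit pass it too. The 2 members are therefore not set apart from all genes by this count. DESeq2 called 1 member, RBM15B, beside 3180 of the 12693 genes to which it gave an adjusted p. The interaction of RBM15B was 0.14 ± 0.054 (adjusted p = 0.0599), a larger rise in hypoxia with shRIPOR3, and it passed the threshold under the other 3 scalings tried, with adjusted p from 0.0268 to 0.0435. It also passed without replicate 2 (0.0370) or 3 (0.0245) of hypoxia shControl and without replicate 2 of hypoxia shRIPOR3 (0.0374). ZC3H13 stood at -0.14 ± 0.063 (adjusted p = 0.127) and passed without replicate 2 of hypoxia shRIPOR3 (0.0306), and METTL3 stood at 0.10 ± 0.056 (adjusted p = 0.231) and passed without replicate 2 of hypoxia shControl (0.0430). The interactions of METTL14, WTAP, CBLL1 and FTO were within 0.02 of 0, and all their 95% intervals lay between -0.14 and 0.12. A missed threshold does not show that the response was the same with both hairpins.

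The 4 groups can be ordered by level for each gene. METTL3 ran from normoxia shRIPOR3 over normoxia shControl and hypoxia shRIPOR3 down to hypoxia shControl, and no neighbours overlapped. RBM15B and CBLL1 ran from hypoxia shRIPOR3 over hypoxia shControl and normoxia shRIPOR3 down to normoxia shControl, again without overlap. RBM15 and ALKBH5 had that order too, but the libraries of the hairpins overlapped in hypoxia for both and in normoxia for ALKBH5. METTL14 ran from normoxia shControl over normoxia shRIPOR3 and hypoxia shControl down to hypoxia shRIPOR3. METTL16 had both shRIPOR3 groups above both shControl groups, and FTO did as well, but for FTO the oxygen levels overlapped within each hairpin. From the highest to the lowest group mean RBM15B spanned 1.69-fold, RBM15 1.65-fold, METTL16 1.57-fold and FTO only 1.14-fold.

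Genes whose log2 CPM followed a member most closely over the 12 libraries were found among the 9790 other tested genes that averaged at least 5 CPM. These are descriptions, and the libraries share the 4 groups. METTL3 was most like PIP4K2A (Pearson r = 0.995), PPP2R1B (0.994) and PCMT1 (0.994), and ALKBH5 was most like ARHGAP17 (0.989), INPP5B (0.984) and IRGQ (0.980). PIP4K2A, for example, averaged 47.3 CPM in hypoxia shRIPOR3, 44.2 in hypoxia shControl, 57.1 in normoxia shRIPOR3 and 54.3 in normoxia shControl. WTAP was most like ACSL1 (0.974), and FTO was most like MTF1 (0.951), FLII (0.940) and CNKSR2 (0.934).

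Some members share bases with a gene on the opposite strand. The library kit was stranded, but the strand setting of the counting is not given in the sources used here. Whether reads in the shared bases were counted for either gene, for both or for neither is therefore not known. METTL3 shares 388 exonic bases with TOX4 (6.6% of its merged exons), WTAP shares 298 and 139 with the 2 annotated genes named SOD2, and RBM15B shares 1325 with DCAF1 (20%). RBM15, CBLL1 and ALKBH5 share 175, 333 and 357 bases with antisense genes. In hypoxia against normoxia the log2 fold change in shRIPOR3 and shControl was -0.09 and -0.23 for TOX4, -0.24 in both for SOD2, and 0.19 and 0.11 for DCAF1. With shRIPOR3 against shControl in hypoxia and in normoxia it was 0.30 and 0.17 for TOX4, 0.26 in both for SOD2, and 0.18 and 0.10 for DCAF1. The part of these overlaps in the members' values was not tested.

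Beyond the members, the writer subunit VIRMA fell in hypoxia in shRIPOR3 (-0.24 ± 0.049) and in shControl (-0.20 ± 0.049), and was not called between the hairpins. With library totals VIRMA stood at -0.09 in shControl (adjusted p = 0.0977). Of 13 genes for readers, the proteins that bind m6A or m6A-dependent sites, 12 were tested. In hypoxia 5 rose and 4 fell in shRIPOR3, where 55.6% of all genes were called, and 6 rose and 3 fell in shControl, where 64.8% were. With library totals 5482 of 15648 genes rose and 3159 fell in shRIPOR3, and 6230 rose and 3882 fell in shControl. On that scale 8 readers rose and 2 fell with either hairpin, so the split of the readers depends on the scaling. The largest rises were those of PRRC2A (0.38 ± 0.038) and FMR1 (0.31 ± 0.04) in shRIPOR3, and FMR1 (0.48 ± 0.039) and IGF2BP3 (0.26 ± 0.04) in shControl. IGF2BP3 fell by 0.13 on the log2 scale in shRIPOR3, but with library totals it stood at -0.01 (adjusted p = 0.84). HNRNPC, a nuclear RNA-binding protein, fell by 0.53 on the log2 scale in shRIPOR3 and by 0.81 in shControl. Between the hairpins, 6 readers were higher and 3 lower in hypoxia, where 61.9% of all genes were called, and 5 were higher and 4 lower in normoxia, where 45.7% were. YTHDF1, which promotes translation of m6A-marked mRNA, was higher in shRIPOR3 by 0.50 ± 0.037 in hypoxia and by 0.43 ± 0.041 in normoxia. IGF2BP3, which stabilises marked mRNA, was lower, with 40.3 ± 0.648 CPM in hypoxia shRIPOR3 and 74.7 ± 2.94 CPM in hypoxia shControl, and with 44.2 ± 1.60 CPM in normoxia shRIPOR3 and 62.2 ± 0.357 CPM in normoxia shControl (SD, n = 3 each). FMR1 was lower as well, by -0.61 ± 0.037 in hypoxia and -0.44 ± 0.042 in normoxia.

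**Figure D5:**
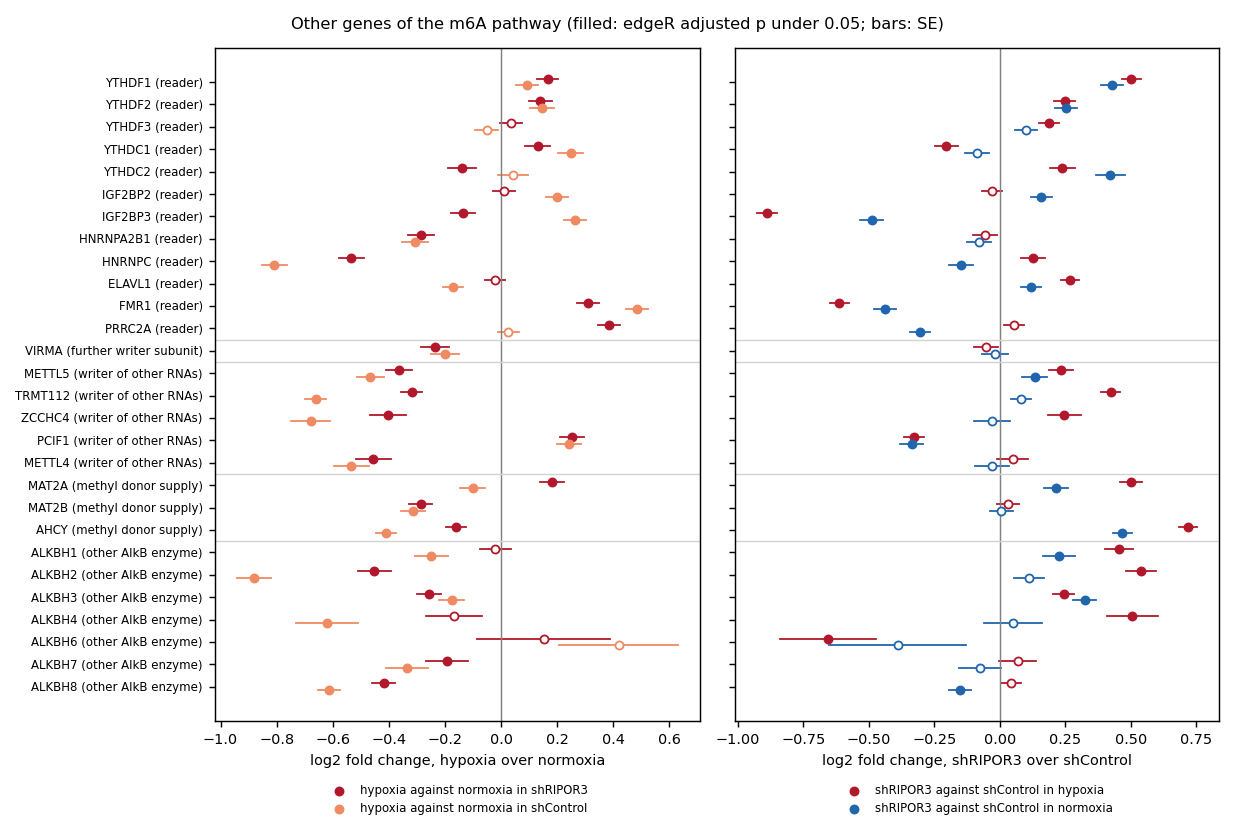
Log2 fold changes of the 28 tested genes of the wider m6A pathway for hypoxia over normoxia (left) and shRIPOR3 over shControl (right), with SE bars; filled points were called by edgeR. HNRNPC and the listed AlkB relatives other than ALKBH6 lie left of 0 in hypoxia (with library totals ALKBH1 stood at 0.10 in shRIPOR3), and IGF2BP3 and FMR1 lie left of 0 with the RIPOR3 hairpin.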

How the data were processed

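The authors deposited raw counts per gene symbol, 1 column for each of the 12 libraries. Per the submitters' processing notes, the tools were fastp 0.23.4, STAR 2.5.3a and featureCounts on GRCh38. For the annotation and the strand setting of the counting, the entry is "not given in the sources used here". Of 24641 symbols 24 had become dates (0.201% of counts) and were kept.

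Genes were fitted together in edgeR 4.0.16 under R 4.3.3, with TMM factors and 1 coefficient per group, after filterByExpr left 15648 genes. Quasi-likelihood tests were adjusted by Benjamini and Hochberg over all of these. The standard error of a fold change was derived from the F statistic, and the common biological coefficient of variation was 3.75%. Replicates of a group differed by more than sampling noise (chi-square per degree of freedom 2.65 to 6.18). Ratios used a prior count of 0.5. Promoters came from RefSeq (GRCh38.p14), gene positions and lengths from GENCODE 29.

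The members, lists and alternatives were chosen with earlier results of these data known. The text names all 10 members and, of each other class, at most the 2 largest called changes each way per comparison, whose values are then also given in other comparisons. For the interaction every gene of the wider list that was called is named. The alternatives were other scalings, DESeq2 1.42.0, other filters, the replicate number as a block, fits of only the 2 groups compared, thinning, and leaving out each library. The fitting was tested on simulated data.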

Additional observations from a re-analysis of the deposited data

Results flagged for a closer look

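No member had a called interaction of hairpin and oxygen in edgeR, but genes of the wider list did. Their response to hypoxia differed between shRIPOR3 and shControl by a test of the difference itself. Of the 28 tested genes of that list 11 were called higher and 3 lower. Across all genes 10.9% were called higher and 12.3% lower, 23.2% in all. Among the readers the interaction (log2) was 0.36 ± 0.054 for PRRC2A, 0.27 ± 0.064 for HNRNPC and 0.15 ± 0.052 for ELAVL1, and it was -0.40 ± 0.058 for IGF2BP3, -0.19 ± 0.055 for IGF2BP2 and -0.17 ± 0.056 for FMR1. The log2 fold change of IGF2BP3 in hypoxia over normoxia was -0.13 ± 0.043 in shRIPOR3 and 0.26 ± 0.04 in shControl, and with library totals, a scaling tried for the wider list after seeing the data, it was -0.01 (adjusted p = 0.84) and 0.37. TRMT112, a cofactor of several methyltransferases, had an interaction of 0.34 ± 0.053, and ZCCHC4 had 0.28 ± 0.094. MAT2A had an interaction of 0.28 ± 0.061, and AHCY had 0.25 ± 0.051. Of the AlkB enzymes, ALKBH1 had an interaction of 0.23 ± 0.081, ALKBH2 of 0.43 ± 0.082, ALKBH4 of 0.45 ± 0.15 and ALKBH8 of 0.19 ± 0.057. NDRG1, the hypoxia marker, had an interaction of -0.81 ± 0.054. The adjusted p of the genes of the wider list ran up to 0.0423, that of ALKBH1.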

How the results depend on the processing

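Each of the 50 member values was recomputed under up to 21 alternatives, 12 of which left out 1 library. Of 1040 recomputed values 920 kept direction and side of the threshold, 60 lost a call, 23 gained one and 37 changed sign. The counts of members called in the 4 comparisons with calls stayed within 6 to 9, all within 1.5 times. The share of all genes called over the same fits was lowest at 6854 of 24633, between hairpins in normoxia without a filter. It was highest at 9362 of 13122, for hypoxia in shControl with the filter of 1 CPM in 3 libraries. A similar count can hide a change of the members called. For the interaction, 1 member was called with median-of-ratios scaling, upper-quartile scaling, library totals and DESeq2, and 0 to 2 when a library was left out. Among all genes 3694, 3660 and 3643 of 15648 were called with these scalings, in that order, and 3180 of 12693 in DESeq2. When a library was left out, the all-gene calls ran from 2994 of 16088 to 3730 of 15844. Of called values WTAP alone changed sign, to 0.021 with library totals in hypoxia against normoxia in shRIPOR3. The other changes of sign were of uncalled values near 0. FTO in hypoxia against normoxia in shControl ran from -0.00686 to 0.0653 when a library was left out. In the interaction METTL14 was 0.0199 with median-of-ratios, 0.0088 with upper-quartile scaling, 0.0094 with library totals, 0.023 in DESeq2, 0.013 without a filter and 0.00036 with the replicate block. CBLL1 was 0.0027 with median-of-ratios and 0.0056 in DESeq2. FTO was 0.013 with median-of-ratios, 0.0028 with upper-quartile scaling, 0.0029 with library totals, 0.017 in DESeq2, 0.0059 without a filter and 0.013 when thinned, where WTAP was -0.0419. Leaving out a library gave interactions from -0.0378 to 0.0347 for METTL14, -0.000632 to 0.0800 for WTAP, -0.0365 to 0.0228 for CBLL1, -0.0398 to 0.0358 for FTO and -0.0974 to 0.0116 for ALKBH5. Per kb of the longest transcript the levels were 25.3 CPM for METTL3, 25.1 for WTAP, 4.74 for RBM15, 33.0 for ZC3H13, 11.7 for CBLL1, 4.26 for METTL16, 3.08 for FTO and 22.7 for ALKBH5. With library totals 0 of the 3 genes most like WTAP and 1 of the 3 most like FTO were again among the first 3. Same-numbered libraries did not deviate together (median r = -0.000513, range -0.0194 to 0.0254 over 18 pairs). This cannot tell whether they were grown or handled together. The replicate block ended the call of ALKBH5 in hypoxia (adjusted p = 0.0518) and no other. The causes were not tested. With counts thinned to the smallest library, WTAP and METTL16 in hypoxia against normoxia in shControl and ALKBH5 in both hairpin comparisons lost their calls.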

Other observations

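Of the 3 genes listed for methyl donor supply 2 fell and 1 rose in hypoxia in shRIPOR3, and 3 fell in shControl. Of all genes 55.6% were called in shRIPOR3 and 64.8% in shControl. MAT2A was the one that rose in shRIPOR3 (0.18 ± 0.043), and it stood at -0.10 ± 0.044 in shControl (adjusted p = 0.0477). With library totals MAT2A stood at 0.0099 in shControl (adjusted p = 0.86), and the fall of AHCY in shRIPOR3 lost its call (-0.04, adjusted p = 0.378). MAT2B, a regulatory subunit of methionine adenosyltransferase, fell by 0.29 on the log2 scale in shRIPOR3 and by 0.31 in shControl. AHCY, which clears the by-product of methylation, averaged 180 ± 4.42 CPM in hypoxia shRIPOR3 and 201 ± 5.32 CPM in normoxia shRIPOR3, and 109 ± 2.21 CPM in hypoxia shControl and 145 ± 2.32 CPM in normoxia shControl (SD, n = 3 each). Of the 5 enzymes and cofactors for other RNAs 4 fell and 1 rose with either hairpin. Across all genes 30.4% fell in shRIPOR3 and 32.4% in shControl. The counts of the 5 were the same with library totals, where 3159 of 15648 genes fell in shRIPOR3 and 3882 in shControl. ZCCHC4, which methylates 28S ribosomal RNA, had log2 fold changes of -0.40 ± 0.065 in shRIPOR3 and -0.68 ± 0.068 in shControl, and PCIF1, which methylates the cap-adjacent adenosine, had 0.25 ± 0.043 and 0.24 ± 0.042. With shRIPOR3 against shControl AHCY was higher by 0.72 ± 0.035 in hypoxia and by 0.47 ± 0.037 in normoxia, and MAT2A by 0.50 ± 0.042 and 0.21 ± 0.045. PCIF1 was lower, at -0.33 ± 0.039 in hypoxia and -0.34 ± 0.045 in normoxia.

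ALKBH5 was set beside 7 other AlkB enzymes, its relatives among the oxygen-using dioxygenases. In hypoxia 4 of these fell and 3 did not pass edgeR's test in shRIPOR3, and 6 fell and 1 did not pass in shControl. Across all genes 55.6% were called in shRIPOR3, 30.4% as lower, and 64.8% in shControl, 32.4% as lower. With library totals 3 of the 7 enzymes fell in shRIPOR3, and 4 fell and ALKBH6 rose in shControl. On that scale 3159 of 15648 genes fell in shRIPOR3 and 3882 in shControl, where 6230 rose. ALKBH2, a DNA repair enzyme, had 131 ± 3.89 CPM in hypoxia shRIPOR3 and 178 ± 22.4 CPM in normoxia shRIPOR3, and 90.0 ± 3.79 CPM in hypoxia shControl and 166 ± 5.36 CPM in normoxia shControl (SD, n = 3 each). ALKBH4 had log2 fold changes of -0.17 ± 0.1 (adjusted p = 0.166) in shRIPOR3 and -0.62 ± 0.11 in shControl. ALKBH8, a transfer RNA enzyme, fell by 0.42 on the log2 scale in shRIPOR3 and by 0.61 in shControl. Whether ALKBH5 differed from these relatives in its response was not tested.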
